A study of Rattus norvegicus with 47 samples.

Results

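The genes for the proteins of the cytosolic ribosome were followed in rat brain after injury. Members were all probe sets whose only gene symbol in the platform annotation is Rpl or Rps followed by a digit, with Rplp0 and Rpsa added and the Rps6k kinases left out. A probe set is a group of short oligonucleotides that together report 1 transcript. The rule found 63 of 8799 probe sets, for 43 of the 4737 genes that a probe set names alone: 42 probe sets for 29 genes of the large subunit and 21 probe sets for 14 genes of the small subunit. The gene count includes Rpl3l and Rps27l, which are relatives of Rpl3 and Rps27, and symbols of copies and pseudogenes (Rpl19l4, Rpl36al1, Rps2-ps1 and Rps4x-ps9). Rplp2 and Rpl10a were named only together with copies of themselves.

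Each of 47 one-colour arrays measured the total RNA of 1 sample, taken by Trizol extraction from cortex or hippocampus of the injured (ipsilateral) or the opposite (contralateral) side. Ipsilateral cortex at 4 h had 7 arrays and contralateral cortex at 4 h had 8. Ipsilateral and contralateral cortex at 24 h had 8 arrays each. Hippocampus (written "HC" in some labels) was taken at 4 h only, with 7 ipsilateral and 9 contralateral arrays. The labels give all samples the treatment type "wait" and no strain, age or sex, and they name no sham operation. Whether arrays of a group come from separate animals is not stated, and the spread behind every p-value here may be technical. Sample numbers run in blocks that follow the groups (array 23, contralateral hippocampus, has a number of the ipsilateral block), so anything done in that order cannot be told apart from group.

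Each ribosome holds a small subunit, which reads the mRNA, and a large subunit, which joins amino acids into protein. Cells make ribosomal proteins in matched amounts, and surplus copies are degraded. Most of their mRNAs begin with a C followed by a run of pyrimidines, the 5′ terminal oligopyrimidine (TOP) motif, through which mTOR signalling controls their translation with little change in mRNA level. In brain these mRNAs are abundant in neurons and glia, and growing or dividing cells hold more of them.

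The start-site windows below are shown because the TOP motif is the sequence feature that these genes are known to share, and the values that follow concern mRNAs with and without it at the listed start. They come from RefSeq (build GRCr8), run from 30 bases before the listed start to 20 bases from it, and so hold the end of the promoter and the first bases of exon 1. Capitals mark the unbroken run of C and T that begins at the listed start.
Rplp0 (chr12:46718371-46718420, minus strand): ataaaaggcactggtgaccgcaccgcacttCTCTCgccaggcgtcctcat
Rpl19 (chr10:83519034-83519083, plus strand): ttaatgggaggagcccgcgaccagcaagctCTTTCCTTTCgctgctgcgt
Rpl31 (chr9:49143081-49143130, plus strand): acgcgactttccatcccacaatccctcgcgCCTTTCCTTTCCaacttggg
Rpl35 (chr3:43165902-43165951, minus strand): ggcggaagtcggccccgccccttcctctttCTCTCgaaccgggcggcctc
Rps15 (chr7:10068096-10068145, minus strand): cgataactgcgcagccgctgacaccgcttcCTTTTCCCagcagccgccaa
Rps3a (chr2:173827023-173827072, minus strand): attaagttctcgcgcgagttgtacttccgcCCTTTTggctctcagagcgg
Rpl21 (chr12:13386134-13386183, minus strand): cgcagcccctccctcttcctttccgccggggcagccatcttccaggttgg
Rps6 (chr5:106420521-106420570, minus strand): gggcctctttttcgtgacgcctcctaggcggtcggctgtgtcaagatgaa
Of the 43 genes, 36 had such a window. A C followed by at least 4 further C or T stood at the start of 11 of these 36 (30.6%), against 881 of all 33469 genes in the table (2.63%), searched on the gene's own strand and at the start base only. The runs of Rplp0 and Rpl35 were 5 bases long, that of Rps3a 6, that of Rps15 8, that of Rpl19 10 and that of Rpl31 12. Rpl21 and Rps6 have none at the listed start, which says only that the letters do not begin at that base.

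Member signals were high. The median member stood at percentile 93.7 of the 7503 probe sets tested by mean level, and 8 of the 63 were under the median. All 63 passed the filter on dim probe sets. Rps29, a small zinc-binding protein of the small subunit, had the brightest probe set (X59051cds_s_at, geometric mean signal 72741), and those of Rps16, the stalk protein Rplp0 and Rpl27a followed within the brightest 5. The dimmest were both probe sets of Rps2-ps1 (235 and 283) and single probe sets of Rpl5, Rpl3l and Rpl30 (362, 372 and 422). A dim probe set and a bright one differ in their oligonucleotides, so these levels do not rank the transcripts. The SD between arrays of a group had a median of 0.172 (log2) over members, 0.308 over all probe sets tested and 0.168 over the 1003 that were at least as bright as the members' lower quartile. Rpl3 (X62166cds_s_at), which lies near the catalytic centre, varied least, with an SD of 0.0950. In 30 members the probe set name carries a suffix (_s, _g, _i or _r) that marks oligonucleotides shared with other transcripts or chosen by relaxed rules, and ribosomal protein genes have many near-identical copies, so these signals can mix several transcripts.

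On all 47 arrays the members together took between 2.95% and 3.86% of the total signal. The share was lowest in contralateral cortex at 24 h (3.15% ± 0.13, SD, n = 8). It was 3.58% ± 0.164 (n = 8) in contralateral cortex at 4 h, 3.57% ± 0.146 (n = 7) in ipsilateral cortex at 4 h, 3.46% ± 0.25 (n = 8) in ipsilateral cortex at 24 h, 3.41% ± 0.121 (n = 7) in ipsilateral hippocampus and 3.37% ± 0.112 (n = 9) in contralateral hippocampus. The 8 arrays of contralateral cortex at 24 h reached 3.35% at most, under the lowest array of contralateral cortex at 4 h (3.36%), while contralateral hippocampus went down to 3.26%. In tissue RNA, fewer cells of a type and less RNA per cell cannot be told apart.

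Both subunits had their lowest group mean in the same place. The mean of the 42 large-subunit probe sets, each taken from its own 47-array mean, was -0.11 ± 0.066 (log2, SD, n = 8) in contralateral cortex at 24 h and between -0.01 and 0.06 in the other 5 groups. For the 21 small-subunit probe sets it was -0.12 ± 0.054 (n = 8) there and between -0.01 and 0.07 elsewhere. The highest large-subunit array of contralateral cortex at 24 h (0.02, array 41) lay within the range of the 4 h arrays (-0.08 to 0.12), so the groups overlapped. The highest small-subunit array there (-0.04) also lay above the lowest 4 h array (-0.06).

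**Figure D1:**
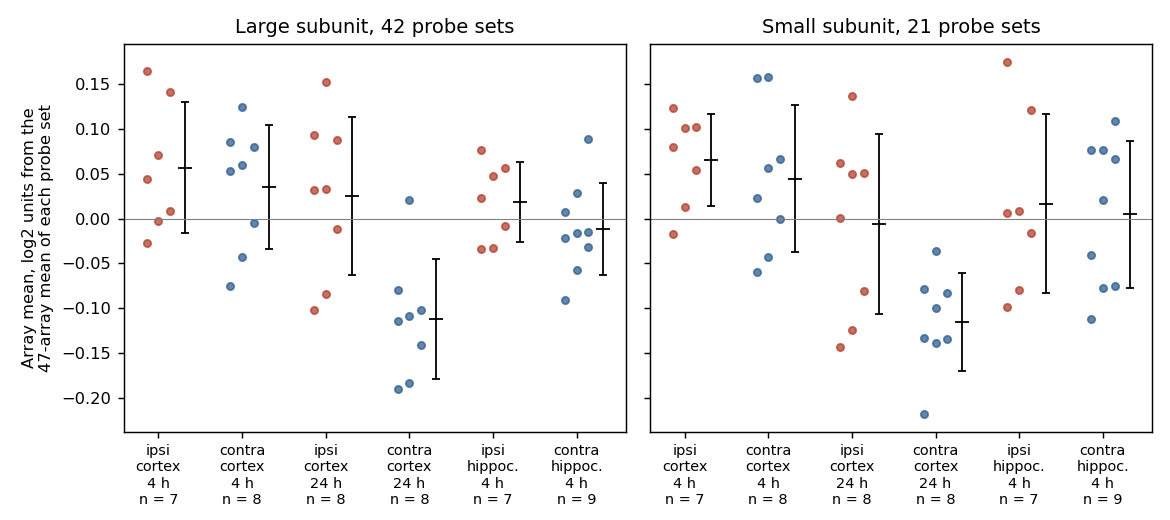
Mean of the large-subunit (left) and small-subunit (right) probe sets on each array, in log2 units from each probe set's mean over 47 arrays; points are arrays, red ipsilateral and blue contralateral, bars are the group mean ± SD. Contralateral cortex at 24 h is lowest in both panels, at -0.11 and -0.12.

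The difference between 24 h and 4 h was largest in contralateral cortex. By limma's moderated test (two-sided, Benjamini-Hochberg adjusted p under 0.05 over 7503 probe sets), 27 of 63 members fell and 6 rose, where 8.25% of all probe sets fell and 13.2% rose. The median member difference was -0.14 for the large and -0.28 for the small subunit, against 0.04 for all probe sets. Bright probe sets as a whole also moved down: of the 1003 at least as bright as the members' lower quartile, members included, 308 fell (30.7%, median -0.09), while 42.9% of members fell. In 9 members the 8 arrays at 24 h did not overlap the 8 at 4 h, as in 3.68% of all probe sets.

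Rpsa, a small-subunit protein that is also known as the laminin receptor precursor, had the largest fall. Its signal (D25224_at) ran from 13348 over a median of 16447 to 17683 in contralateral cortex at 4 h and from 9615.5 over 10512 to 11331 at 24 h, so that no array of the later group reached the earlier one. The fall was 0.62 on the log2 scale (difference -0.62, SE 0.086, 1.54-fold, limma adjusted p = 6.4e-07). The other Rpsa probe set (D25224_g_at) fell as well (-0.43, adjusted p = 4.2e-05) and its groups did not overlap either.

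Among large-subunit genes, the largest falls were those of Rpl23, Rpl35, Rpl24 and Rpl6. Rpl35, which sits beside the tunnel through which new protein leaves the ribosome, ran from 21260 to 29532 (median 27288, M34331_g_at) at 4 h and from 14372 to 21164 (median 17851) at 24 h. The highest later array stayed just under the lowest earlier one, and the difference was -0.55 (SE 0.074, adjusted p = 3.4e-07). Both Rpl35 probe sets fell alike (-0.55 each). Rpl23, a core protein at the interface between the subunits, ran from 36510 to 46685 (median 42007, X58200mRNA_g_at) at 4 h and from 24513 to 32022 (median 28116) at 24 h, also without overlap (difference -0.59, SE 0.09, adjusted p = 3.2e-06). The other Rpl23 probe set, X58200mRNA_at, had a difference of -0.13 that did not pass (adjusted p = 0.14). Rpl24 (rc_AA817997_at, -0.50, SE 0.098) and Rpl6 (rc_AA799672_s_at, -0.50, SE 0.083) fell with overlap between times. The other Rpl24 probe set, rc_AA817997_g_at, had a difference of -0.10 (adjusted p = 0.46), and the other of Rpl6, S71021_s_at, fell by 0.26 on the log2 scale.

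Rplp0, the base of the stalk that recruits elongation factors, ran from 34650 to 46137 (median 41062) at 4 h and from 30754 to 34946 (median 32119) at 24 h. The 24 h arrays lay in a narrow band at the foot of the earlier range, and the difference was -0.34 (SE 0.063, adjusted p = 8.3e-05). Rpl3 gave no single answer: its probe set rc_AA892367_i_at fell (-0.37, adjusted p = 0.0053), and X62166cds_s_at had a difference of -0.08 (adjusted p = 0.32).

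In the small subunit, Rps29 and Rps16 fell without overlap. Rps29 (X59051cds_s_at) ran from 82031 to 111630 (median 89299) at 4 h and from 61232 to 75969 (median 65409) at 24 h (difference -0.46, SE 0.073, adjusted p = 5.8e-06). Rps16 ran from 44504 to 52934 (median 48535) and then from 31066 to 43661 (median 34969; difference -0.45, SE 0.065, adjusted p = 1.8e-06). Rps3, Rps3a, Rps9, Rps10 and Rps23, which lie on several sides of the small subunit, fell by between 0.21 and 0.32 on the log2 scale.

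A minority rose. Rps27l, a stress-inducible relative of Rps27, ran from 1320.5 to 2810.3 (median 1732.6, X59375mRNA_at) at 4 h and from 1907 to 3081.8 (median 2606.8) at 24 h. The groups overlapped, and the rise was 0.56 (SE 0.131, 1.48-fold, adjusted p = 0.0012). Rps6, the substrate of the S6 kinases, rose in 1 probe set (M29358_at, 0.23, SE 0.079, adjusted p = 0.033), while the other, M29358_g_at, had a difference of 0.04 (adjusted p = 0.81). The Rps6 call was lost in 6 of 16 fits that left out 1 array, and that of Rpl27 (0.24, adjusted p = 0.047) in 12 of 16, with adjusted p up to 0.094.

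**Figure D2:**
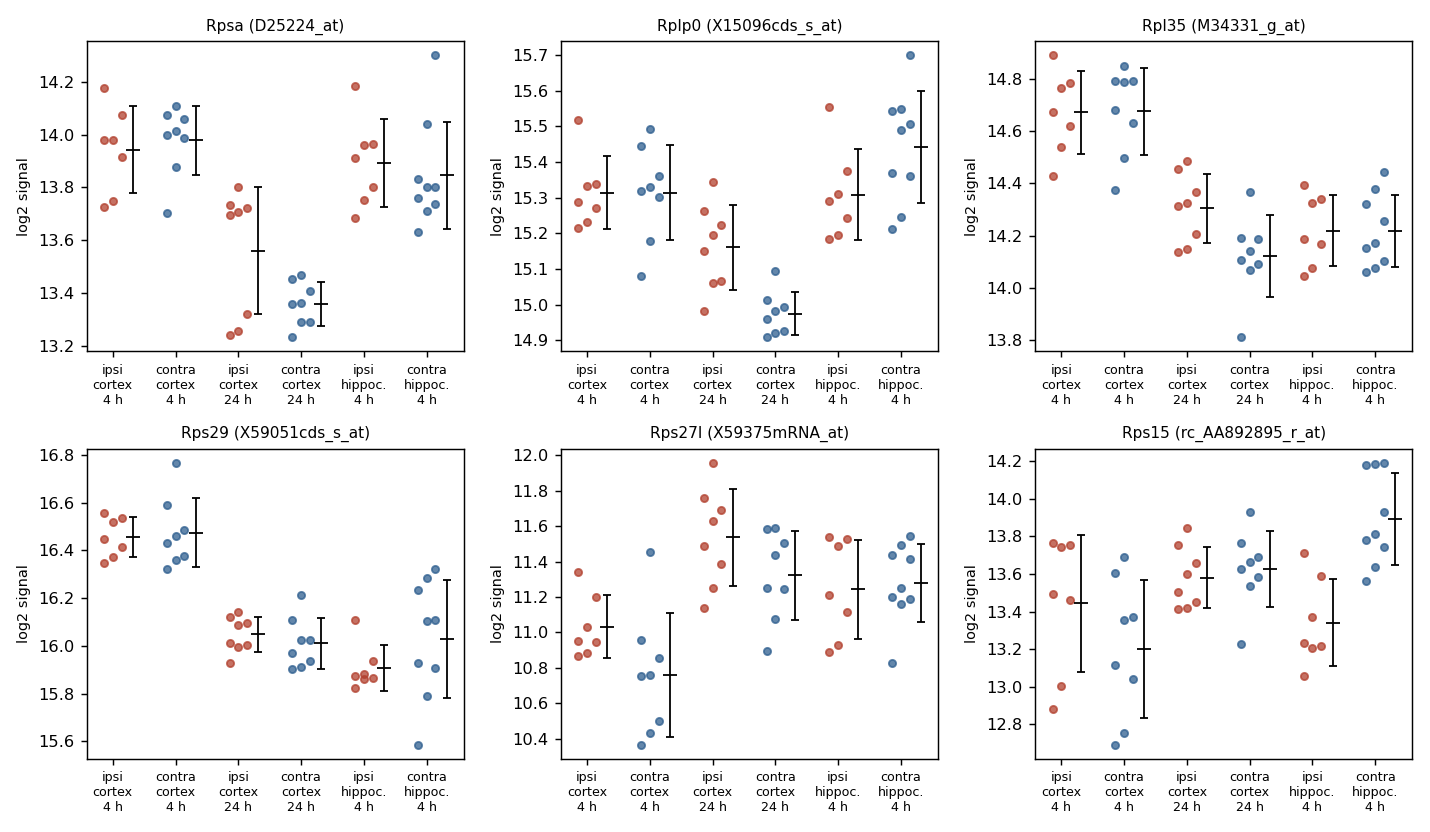
Log2 signal of 6 members on every array by group; points are arrays, red ipsilateral and blue contralateral, bars are the mean ± SD. Rpsa, Rplp0, Rpl35 and Rps29 are lower in contralateral cortex at 24 h than at 4 h, Rps27l is higher, and Rps15 (rc_AA892895_r_at) is highest in contralateral hippocampus (mean 13.89).

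Of the RNA quality ratios, that of Gapdh moved with time in the contralateral cortex. The 3′ to 5′ signal ratio of the Gapdh control probe sets, which grows as RNA degrades, was 1.21 ± 0.069 (n = 8) at 4 h and 1.08 ± 0.036 (n = 8) at 24 h. The same ratio for beta-actin was 1.51 ± 0.148 at 4 h and 1.44 ± 0.078 at 24 h, a shift within the spread. With the Gapdh ratio as a covariate, chosen after seeing the data, 19 members fell and 1 rose, and the median over members was -0.18 in place of -0.21. Calls over all probe sets went from 1612 to 623 with it. Neuron markers (5 of 8 listed were tested) had a mean of 0.00 ± 0.085 at 4 h and 0.18 ± 0.108 at 24 h. Oligodendrocyte markers (5 of 7) went from 0.09 ± 0.08 to -0.16 ± 0.271, and endothelial markers (5 of 7) from -0.01 ± 0.218 to 0.20 ± 0.205. The part of these cells in the result was not tested. With quantile normalization 19 members fell and 4 rose, with a median of -0.14, and 1346 of all 7503 probe sets were called.

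Members with and without a TOP-like start were set side by side for this comparison. The 14 probe sets of the 11 genes with such a start had a median difference of -0.28, with 7 lower and 1 higher, and the 39 probe sets of the 25 other genes with a window had a median of -0.14, with 18 lower and 4 higher. In ipsilateral cortex the medians were -0.14 (6 lower, none higher) and -0.04 (6 lower, 4 higher). Over all probe sets 8.25% fell and 13.2% rose in contralateral cortex, and 7.92% fell and 11.4% rose in ipsilateral cortex. Some of the other genes have a long run of C and T that begins with T, such as Rpl27a and Rps23 (19 bases each), Rps24 (9) and Rps10 (8). The 2 sets were not tested against each other.

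In ipsilateral cortex fewer members moved between 4 h and 24 h: 15 fell and 5 rose, where 7.92% of all probe sets fell and 11.4% rose. The median was -0.02 for the large subunit and -0.15 for the small, against 0.03 for all probe sets. By subunit, 6 of 42 large and 9 of 21 small members fell. Of the 1003 bright probe sets 27.3% fell, and 23.8% of members did. Only Rps29 (X59051cds_s_at) had no overlap between the times, where 3.52% of all probe sets had none.

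In this Rps29 probe set, signals ran from 83331 to 96450 (median 89342) at 4 h and from 62339 to 72190 (median 67849) at 24 h. Every later array lay under every earlier one (difference -0.41, SE 0.075, adjusted p = 9e-05). In the other Rps29 probe set, rc_AA965264_at, the times overlapped. Rpl23 (-0.42, SE 0.093), Rpl35 (M34331_g_at, -0.37, SE 0.077) and Rps16 (-0.31, SE 0.068) fell too. Rpsa (D25224_at) ran from 13563 to 18509 (median 16135) at 4 h and at 24 h split into a group near the contralateral level (arrays 33, 35 and 36, between 9679.6 and 10214) and a group above it (arrays 34 and 37 to 40, between 13269 and 14271). Its difference was -0.38 (SE 0.089, adjusted p = 0.0014). Rpl17, near the exit tunnel, had the largest fall among the members called (-0.47, SE 0.159, adjusted p = 0.029), which was lost in 4 of 15 fits without 1 array (adjusted p up to 0.081).

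The rises were in Rps4x-ps9 (0.55, SE 0.134), Rps24 (0.55, SE 0.135), Rps27l (0.51, SE 0.135), Rpl21 (M27905_at, 0.30, SE 0.071) and Rps6 (M29358_at, 0.23, SE 0.082). The Rps6 call (adjusted p = 0.036) was lost in 8 of 15 fits without 1 array, with adjusted p up to 0.086, and M29358_g_at had a difference of 0.15 (adjusted p = 0.26). Rps24, needed to process the precursor of small-subunit RNA, ran from 1588.1 to 3658.7 (median 1730.3) at 4 h and from 2480 to 3390.2 (median 2945.9) at 24 h, with overlap. A brighter probe set, M89646_g_at, names Rps24 together with a copy. Its log2 mean did not rise, at 14.41 ± 0.076 (SD, n = 7) at 4 h and 14.27 ± 0.215 (n = 8) at 24 h. With quantile normalization 5 members fell and 4 rose and the median over members went from -0.08 to -0.01. Calls over all 7503 probe sets went from 1450 to 1299. The Gapdh 3′ to 5′ ratio was 1.19 ± 0.085 (n = 7) at 4 h and 1.09 ± 0.037 (n = 8) at 24 h. The beta-actin ratio was 1.64 ± 0.169 and 1.44 ± 0.056. With the Gapdh ratio as a covariate 8 members fell and 3 rose, and 745 of all 7503 probe sets were called.

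**Figure D3:**
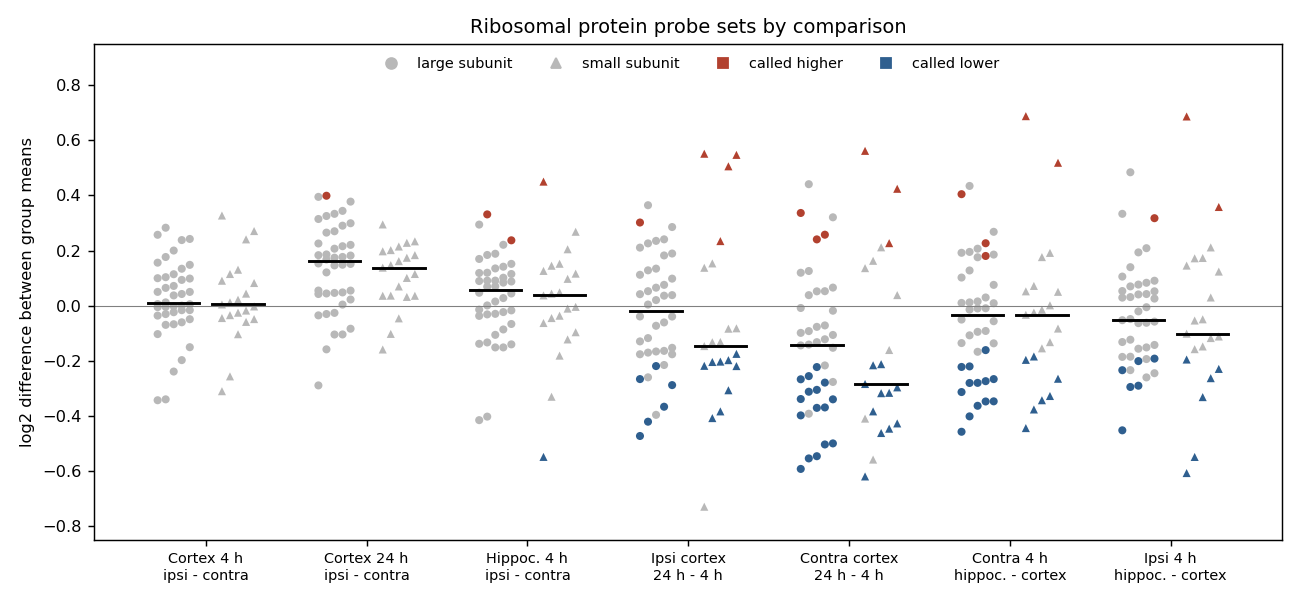
Log2 difference between group means for every member in 7 comparisons; circles are large-subunit and triangles small-subunit probe sets, red called higher and blue called lower (limma adjusted p under 0.05), bars are medians. Falls are most frequent for contralateral cortex, 24 h minus 4 h (27 of 63), and most cortex 24 h side differences lie above 0 (52 of 63).

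At 24 h most members were higher in ipsilateral than in contralateral cortex by a small amount that single probe sets did not establish. The difference was above 0 in 52 of 63 members, with a median of 0.16 for the large and 0.14 for the small subunit, while 3275 of 7503 probe sets were above 0 and their median was -0.02. Only 1 member passed the test, a probe set of Rpl21, where 0.0933% of all probe sets were called higher. At an unadjusted p under 0.05 there were 29 of 63 members and 575 of 7503 probe sets. Of the 1003 bright probe sets, 144 were under that p and 486 had a difference above 0. Members share their arrays, so the shift of an array can enter these counts many times. No member's groups were free of overlap (0.0133% of all probe sets were).

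Rpl24, whose product joins the large subunit late in assembly, had the next smallest p. In contralateral cortex at 24 h its signal (rc_AA817997_at) ran from 6922.6 over a median of 9368.5 to 11079, and in ipsilateral cortex from 10270 over 12104 to 14478. The ipsilateral arrays began inside the contralateral range and reached past it (difference 0.39, SE 0.098, limma adjusted p = 0.11). Rplp0 had a difference of 0.19 (SE 0.063, adjusted p = 0.35), Rpsa of 0.20 (D25224_at, SE 0.086, adjusted p = 0.55), and Rpl18 of 0.31 (SE 0.082, adjusted p = 0.12).

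Rpl21, a large-subunit protein, was measured by 4 probe sets, and they differed in what they showed. In X15216cds_s_at, contralateral cortex at 24 h ran from 5702.4 over a median of 6439.7 to 8944.7 and ipsilateral cortex from 7808.6 over 8824.8 to 9782.7. Contralateral array 41 (8944.7) lay among the ipsilateral arrays and the other 7 contralateral arrays below all of them. The difference was 0.40 (SE 0.088, 1.32-fold), with a limma adjusted p of 0.0498. That call was lost in 12 of 16 fits without 1 array (arrays 34, 35, 37 to 40, 42 to 46 and 48), with adjusted p from 0.0082 to 0.22 and differences from 0.37 to 0.46. It was also lost in a fit of the 24 h cortex arrays alone (adjusted p = 0.33) and without the filter on dim probe sets (adjusted p = 0.12).

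The other Rpl21 probe sets had side differences at 24 h of 0.04 (M27905_at, SE 0.068), 0.05 (rc_AA849648_at, SE 0.141) and -0.04 (rc_AA849648_g_at, SE 0.162), with adjusted p of 0.97 or more. M27905_at instead followed time and region. It ran from 9919.7 to 14938 in contralateral cortex at 4 h and from 13941 to 16820 at 24 h (rise 0.26, SE 0.068, adjusted p = 0.0044), and it rose in ipsilateral cortex by 0.30 (adjusted p = 0.0016). Its order of group means was contralateral and ipsilateral cortex at 4 h (both 13.66), contralateral hippocampus (13.84), contralateral cortex at 24 h (13.92), ipsilateral cortex at 24 h (13.96) and ipsilateral hippocampus (13.98), in which the last 3 lay within 1 SD of each other. X15216cds_s_at had its lowest mean in contralateral cortex at 24 h (12.70 ± 0.2, n = 8) and its highest in ipsilateral cortex at 24 h (13.10 ± 0.105, n = 8), with the 4 h groups between 12.71 (contralateral hippocampus) and 12.94. The dimmer pair, rc_AA849648_at and rc_AA849648_g_at, was called in none of the 9 comparisons.

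**Figure D4:**
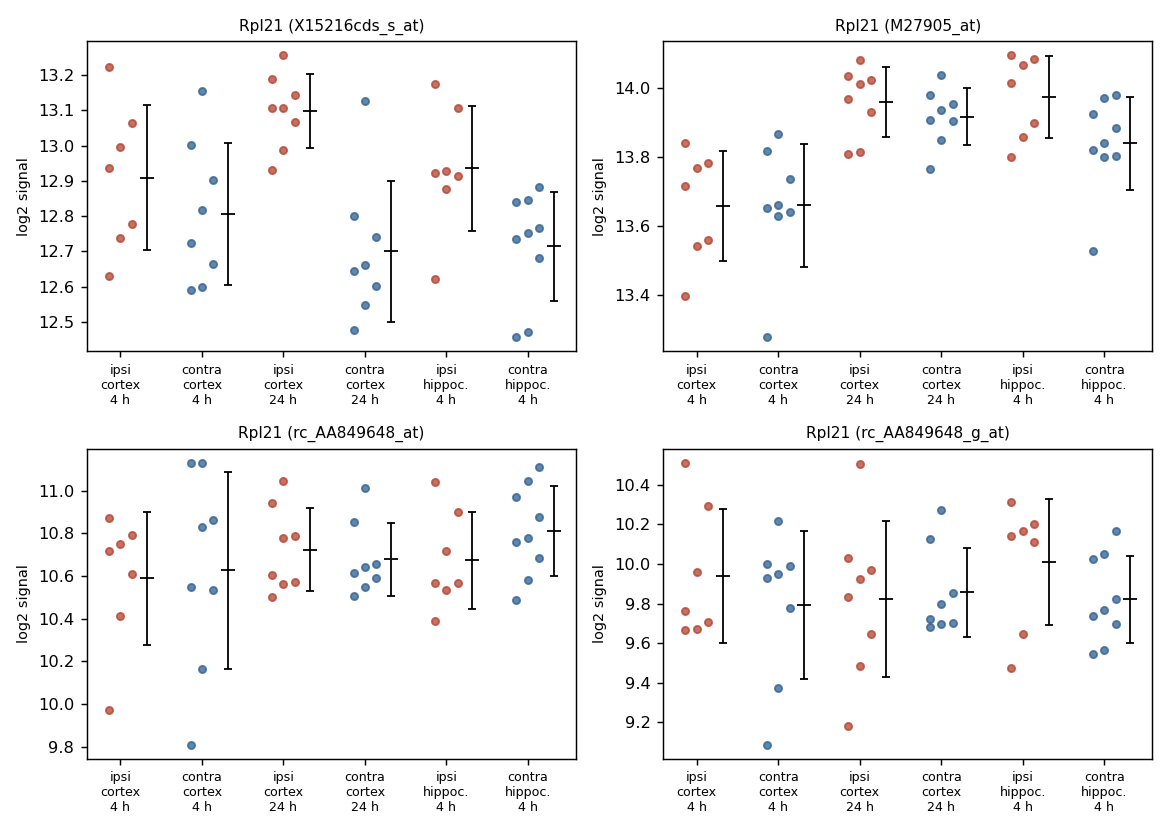
Log2 signal of the 4 Rpl21 probe sets on every array by group; points are arrays, red ipsilateral and blue contralateral, bars are the mean ± SD. At 24 h the sides are apart in X15216cds_s_at (13.10 and 12.70) and alike in M27905_at (13.96 and 13.92).

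The ipsilateral arrays at 24 h were spread in several measures at once. Arrays 37, 38, 39 and 40 had large-subunit means of 0.09, 0.15, 0.09 and 0.03, and arrays 33, 34, 35 and 36 had -0.10, 0.03, -0.08 and -0.01. The mean of the microglia and macrophage markers (9 of 12 listed were tested) was 0.65, 0.91, 0.62 and 0.66 on arrays 37 to 40 and between -0.20 and 0.06 on arrays 33 to 36. Over the series, it ran from -0.40 to 0.91. Markers of dividing cells (4 of 5 tested) were between 0.71 and 1.07 on arrays 37 to 40 and between -0.06 and 0.11 on the others. The part of these cells in the ribosomal protein values was not tested. Array 34 had the large-subunit mean of array 40 (0.03) at a microglia marker mean of -0.15. In contralateral cortex at 24 h the microglia markers lay between -0.29 and 0.15.

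**Figure D5:**
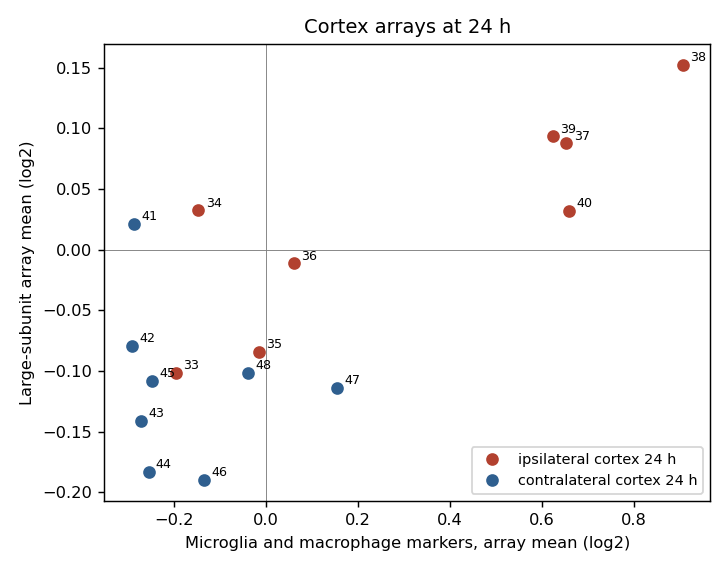
Large-subunit array mean (vertical, log2 units from the 47-array mean) against the mean of 9 microglia and macrophage markers (horizontal, log2) for the 16 cortex arrays at 24 h, numbered as in the labels; red ipsilateral, blue contralateral. Ipsilateral arrays 37 to 40 have marker means of 0.62 to 0.91, and all other arrays lie between -0.29 and 0.15.

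At 4 h no side difference in these genes was established in cortex. Member differences ran from -0.34 to 0.33 (log2). On simulated data the test of this comparison recovered 22% of the smallest changes put in, so small differences can be missed. None of the 63 members passed limma's test, as for all probe sets (0%), and 5 members had an unadjusted p under 0.05 (558 of 7503 probe sets did). No alternative fit called any, and no member was free of overlap between the sides (0.0267% of all probe sets were). Medians were 0.01 for the large and 0.00 for the small subunit, and the members' smallest adjusted p was 0.62, for Rps24 (-0.31, SE 0.135). Rpl4 (0.24, SE 0.112), Rpl36al1 (0.26, SE 0.12), Rpl23 (-0.20, SE 0.093) and Rpl22 (0.28, SE 0.14) followed.

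The change of the cortical side difference from 4 h to 24 h, which is also the difference between both sides' changes with time, passed for no member and no other probe set (0%). It was above 0 in 49 of 63 members, with medians of 0.12 for each subunit against -0.01 for all probe sets, and 9 members and 421 of 7503 probe sets had an unadjusted p under 0.05 by limma. Rpl24 (0.46, SE 0.141) and Rpl19 (0.40, SE 0.122) were among the smallest p, with an adjusted p of 0.74 each. The larger count of falls on the contralateral side is therefore not shown to differ from that on the ipsilateral side. The comparisons within cortex share their groups of arrays.

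In hippocampus at 4 h, 3 members were higher and 1 lower on the ipsilateral side, where 5.32% of all probe sets were higher and 10.8% lower. Of the 1003 bright probe sets, 8.57% were higher and 4.49% lower. Their median difference was 0.04, as was that of the members. Rps4x-ps9, an annotated copy of the small-subunit gene Rps4x, ran from 2848.3 over a median of 3880.4 to 5007.6 on the contralateral side and from 4301.9 over 5299.2 to 6408.3 on the ipsilateral side, with overlap (difference 0.45, SE 0.13, adjusted p = 0.016). Probe sets that name Rps4x together with this copy had contralateral log2 means of 15.093 (X14210cds_at) and 14.275 (X14210cds_g_at). Their ipsilateral means were 15.073 and 14.379. Rpl26, which binds at the surface near the exit tunnel, was called in X14671cds_s_at and not in rc_AA893493_i_at. X14671cds_s_at ran from 18166 over 18652 to 20276 and from 20282 over 22610 to 25175, with no overlap by a narrow margin (0.24, SE 0.075, adjusted p = 0.026). Rps3 (X51536cds_at) was the other of 2 members without overlap (1.61% of all probe sets), and it did not pass (0.15, adjusted p = 0.079); X51536cds_g_at of the same gene had a difference of -0.18 (adjusted p = 0.095). Rpl35a was higher by 0.33 (SE 0.111, adjusted p = 0.035). Leaving out 1 array lost the Rpl35a call in 6 of 16 fits (adjusted p up to 0.090) and the Rpl26 call in 2 of 16 (up to 0.071).

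All 4 hippocampal calls were lost once each array's 10th percentile of signal entered the model. That percentile was 43.98 ± 6.85 (n = 7) on the ipsilateral and 64.8 ± 16.1 (n = 9) on the contralateral side, and the number of calls over all probe sets went from 1207 to 5 with the covariate. Leaving out ipsilateral array 18 left 2 calls. With quantile normalization 3 members were higher and 3 lower, and 1083 of all 7503 probe sets were called. Choroid plexus markers (3 of 5 tested) ran from -0.95 to 1.54 on the ipsilateral and from -0.74 to 2.0 on the contralateral side, and their part in the result was not tested.

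Contralateral hippocampus was compared with contralateral cortex at 4 h. Here 20 members were lower and 5 higher in hippocampus, where 11.4% of all probe sets were lower and 22.3% higher, and 35.8% of the 1003 bright probe sets were lower, against 31.7% of members. The Gapdh 3′ to 5′ ratio was 1.21 ± 0.069 (n = 8) in this cortex group and 1.09 ± 0.041 (n = 9) in this hippocampus group. The beta-actin ratio was 1.51 ± 0.148 and 1.23 ± 0.093. With the Gapdh ratio as a covariate 12 members were lower and 2 higher, and calls over all probe sets went from 2530 to 1740. The median was -0.03 in both subunits and 0.11 over all probe sets. The groups of 5 members did not overlap (5.74% of all probe sets), those of Rpl41, Rpl31, Rpl27a, Rps3 and Rps15 (E01534cds_s_at). Rpl41, the shortest ribosomal protein, ran from 6797.7 over 7459.3 to 8008.9 in cortex and from 4971.1 over 5801.3 to 6496.5 in hippocampus (difference -0.35, SE 0.064, adjusted p = 2.7e-05). Rpl35 (M34331_g_at, -0.46, SE 0.072) and Rps29 (X59051cds_s_at, -0.44, SE 0.071) were lower, and Rps27l (0.52, SE 0.127) was higher. Quantile normalization, which moved the median of all probe sets by -0.10 in this comparison, called 8 members lower and 8 higher. It called 2049 of all 7503 probe sets.

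On the ipsilateral side 12 members were lower and 3 higher in hippocampus than in cortex at 4 h, where 10.8% of all probe sets were lower and 16.7% higher. Members were called lower in 19.05% of cases, against 30.1% of the 1003 bright probe sets. Rps15 (rc_AA892895_i_at) had the largest difference among the members called lower (-0.61, SE 0.191, limma adjusted p = 0.014). Rps29 was lower in both probe sets, in rc_AA965264_at by 0.33 on the log2 scale (SE 0.071, adjusted p = 0.00028). Its X59051cds_s_at ran from 57940 over 59972 to 70700 in hippocampus, under all 7 cortex arrays (difference -0.55, SE 0.078, adjusted p = 2.4e-07). Rpl35 (M34331_g_at, -0.45, SE 0.079) and Rpl31, a surface protein of the large subunit (-0.30, SE 0.06), had no overlap either, which makes 3 members (8.2% of all probe sets). Rps4x-ps9 (0.69, SE 0.138), Rps24 (0.36, SE 0.139) and Rpl21 (M27905_at, 0.32, SE 0.073) were higher, and the Rps24 call (adjusted p = 0.048) was lost in 11 of 14 fits without 1 array, with adjusted p up to 0.11. The brighter probe set for Rps24 and a copy (M89646_g_at) was not higher in hippocampus. Its log2 mean was 14.27 ± 0.192 there and 14.41 ± 0.076 in cortex. With quantile normalization 5 members were lower and 5 higher, and 1904 of all 7503 probe sets were called. The Gapdh 3′ to 5′ ratio was 1.19 ± 0.085 (n = 7) in this cortex group and 1.12 ± 0.054 (n = 7) in this hippocampus group. The beta-actin ratio was 1.64 ± 0.169 and 1.33 ± 0.095. The 2 regional comparisons share no arrays with each other, but each shares its cortex group with the comparisons of time and side.

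Probe sets of 1 gene often disagreed. Of the 17 genes with more than 1 probe set, all probe sets had the same sign in 10 genes for contralateral cortex over time and in 9 for ipsilateral cortex. Rps15, of the head of the small subunit, and Rpl13a, of the large subunit, had probe sets called in opposite directions in contralateral cortex over time. For Rps15, E01534cds_s_at fell from a range of 21909 to 28999 (median 24130) to one of 16066 to 21172 (median 18672), without overlap (-0.38, SE 0.063, adjusted p = 1.3e-05), while rc_AA892895_r_at rose from a range of 6620.4 to 13200 (median 9671.3) to one of 9608.3 to 15601 (median 12806), with overlap (0.42, SE 0.129, adjusted p = 0.014). For Rpl13a, rc_AI012805_at fell (-0.27, SE 0.084) and rc_AA891713_at rose (0.34, SE 0.108), and the rise was lost without contralateral array 15 (adjusted p = 0.066). Contralateral hippocampus against cortex split the Rps15 probe sets in the same way, with E01534cds_s_at lower (-0.34) and rc_AA892895_r_at higher (0.69). The name of rc_AA892895_r_at carries the suffix for relaxed selection rules.

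That Rps15 probe set was also the 1 member whose side difference at 4 h differed between hippocampus and cortex (-0.79, SE 0.187, adjusted p = 0.015), where 4.18% of all probe sets were called in this comparison and 3.11% were called lower. In hippocampus it was lower on the ipsilateral side (8533.5 to 13425, median 9629.6) than on the contralateral side (12079 to 18698, median 14400), with overlap (-0.55, SE 0.13, adjusted p = 0.0041). In cortex the ipsilateral range (7557.5 to 13891, median 11541) covered most of the contralateral one (6620.4 to 13200, median 9671.3). The call was lost with the signal percentile in the model and when only the arrays compared were fitted, and E01534cds_s_at had a hippocampal side difference of 0.14 (SE 0.064, adjusted p = 0.11).

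A further 30 tested probe sets name several ribosomal protein genes or their copies and were kept apart from the members. In contralateral cortex 16 of 30 fell (53.3%) and 1 rose between 4 h and 24 h, with a median of -0.23. Over all probe sets 8.25% fell and 13.2% rose, and 30.7% of the 1003 bright probe sets fell. At 24 h all 30 had a side difference above 0, with a median of 0.11, none past the test, while 3275 of 7503 probe sets were above 0. Some of the 30 name genes that also have a member probe set, such as Rps24. The largest fall was of a probe set for Rpl10a and its copies (X93352_at, -0.63, adjusted p = 1.4e-06), and one for Rps4x and Rps4x-ps9 (X14210cds_g_at) rose by 0.54 (adjusted p = 1e-04). A brighter probe set for the same genes, X14210cds_at, did not rise. Its log2 mean was 15.016 ± 0.105 at 4 h and 14.945 ± 0.114 at 24 h. Rack1, a small-subunit protein with another kind of name and a scaffold for signalling kinases, fell by 0.34 on the log2 scale in contralateral cortex over time (SE 0.096, adjusted p = 0.0085) and had a side difference of 0.38 at 24 h that did not pass.

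Other genes of protein synthesis were counted by lists, with 1 probe set per gene. Over all probe sets, 13.2% rose and 8.25% fell with time in contralateral cortex, and 11.4% rose and 7.92% fell in ipsilateral cortex. Between the sides of the hippocampus 5.32% were higher and 10.8% lower ipsilaterally. No list was tested against these shares. Of 6 other genes with TOP mRNAs that were tested (16 listed), Eef2, the translocation factor, fell over time in contralateral (-0.30, SE 0.055, adjusted p = 9.9e-05) and ipsilateral cortex (-0.34, SE 0.057, adjusted p = 2.9e-05). Naca, a chaperone of new protein, rose on the contralateral side (0.22) and Eef1a1, which brings aminoacyl-tRNA to the ribosome, on the ipsilateral side (0.33). Of 14 initiation genes (23 listed), 4 rose and 1 fell in contralateral cortex over time: the cap-binding protein gene Eif4e rose by 0.86 (SE 0.123, adjusted p = 1.2e-06), its inhibitor Eif4ebp1 by 1.69 (SE 0.312), Eif5 by 0.83 and Eif2s3 by 0.43, and Eif2b1 fell by 0.36. On the ipsilateral side 3 rose and 1 fell. In hippocampus at 4 h, 2 initiation genes were higher and 4 lower ipsilaterally, and 3 of the 6 other TOP genes were higher (Nap1l1 by 0.56, Eef1a1 by 0.33 and Hnrnpa1 by 0.26).

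Of 10 ribosome assembly genes (20 listed), Dkc1 and Nolc1 fell over time on both sides of the cortex (Dkc1 by 0.43 on each, Nolc1 by 0.20 and 0.19), Polr1d rose contralaterally and Polr1a fell ipsilaterally. Of 8 genes of mTOR and S6 kinase signalling (15 listed), Rheb, the activator of mTOR, rose over time on both sides (0.35 and 0.24), Tsc2, which inhibits Rheb, fell contralaterally (-0.33) and Akt2 rose ipsilaterally (0.40). Of 14 mitochondrial ribosomal protein genes, 2 rose and none fell in contralateral cortex over time, with a median of 0.00, where 13.2% of all probe sets rose and 8.25% fell. None of the genes in these lists passed the side comparisons in cortex at 4 h or 24 h (0% and 0.107% of all probe sets did).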

How the data were processed

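The authors deposited 1 intensity per probe set and array, on a linear scale. How probes were summarised is not given in the sources used here. Trimmed by 2% at each end, array means ranged from 2502.9 to 2503.6, and values were kept as deposited, raised to the 25th percentile (185.76) and taken to log2. The number of arrays limits the precision. Probe sets above that floor on at least 7 arrays were tested, without 59 controls, which left 7503.

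Symbols came from the platform annotation, updated by gene ID (62 of 63 members matched). The annotation names 1 gene for 7018 probe sets, several for 308 and none for 1473, and can be old.

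All 47 arrays entered 1 model of 6 group means in limma 3.58.1 (R 4.3.3; eBayes with trend, two-sided, Benjamini-Hochberg over 7503 probe sets in each of 9 comparisons, threshold 0.05). The test was checked on simulated data. Array means are averages over member or marker probe sets of each probe set's deviation from its mean.

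Members and lists were chosen with earlier results of these data known. Named members are, per comparison, up to 6 largest rises and 6 largest falls among those called, all Rpl21 probe sets and Rplp0, Rpsa, Rps6 and Rpl3; where none was called, the 5 smallest p; the extremes of level and spread; genes with opposite calls; and up to 3 called genes per list. Rpl18, Rps3, the examples without overlap, second probe sets beside a named one, Eif2s3 and the probe sets of several genes were chosen after their values were seen. Alternatives were quantile normalization, a lower floor, no filter, only the arrays compared, array weights, a covariate, fewer probe sets and leaving out each array. Sample numbers occur once each, so no pairing was used.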

Additional observations from a re-analysis of the deposited data

Results flagged for a closer look

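In 6 of the 156 groups of values examined, 1 array lay far from the rest by Dixon's test, which chance does in about 5% of groups. Rpl21 (M27905_at) was lowest on array 9 of contralateral cortex at 4 h (13.28, next 13.63) and on array 29 of contralateral hippocampus (13.53, next 13.80). Rps29 (X59051cds_s_at) was highest on array 22 of ipsilateral hippocampus (16.11, next 15.94), and Rps15 (E01534cds_s_at) on array 18 of the same group (14.52, next 14.40). Rplp0 was highest on array 1 of ipsilateral cortex at 4 h (15.52, next 15.34), and Rps4x-ps9 lowest on array 33 of ipsilateral cortex at 24 h (11.74, next 12.18). All values are log2 signals.

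The side difference of Rps15 (rc_AA892895_r_at) at 4 h differed between hippocampus and cortex by -0.79 (limma adjusted p = 0.015). Without any 1 of the 31 arrays it lay between -0.88 and -0.72, with adjusted p from 0.0034 to 0.034.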

How the results depend on the processing

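No paired analysis was possible because each sample number occurs once in the series. Leaving out each array in turn gave these ranges of members called: 0 in cortex at 4 h; 0 to 3 for cortex sides at 24 h; 2 to 6 for hippocampus sides; 15 to 20 and 30 to 33 over time in ipsilateral and contralateral cortex; 21 to 26 and 12 to 17 for region on the contralateral and ipsilateral side; 0 for the change of the cortical side difference; 1 to 2 for the side difference by region. The median stayed between 0.13 and 0.18 for cortex sides at 24 h and between -0.23 and -0.17 for contralateral cortex over time, and the call of Rpl21 X15216cds_s_at had an adjusted p of 0.0082 to 0.22 at differences of 0.37 to 0.46. Quantile normalization called 9 members over time in ipsilateral cortex (median -0.0066) and 16 by region contralaterally. Over all 7503 probe sets it called 1299 and 2049. It moved the contralateral median over time to -0.14. It called Rpl3 X62166cds_s_at (0.13 against -0.01) and Rplp0 (0.17 against -0.01) higher in hippocampus. Without the dim filter, or with only the arrays compared, no cortex side difference at 24 h passed (Rpl21 differences of 0.40, adjusted p = 0.12 and 0.33), and the latter called 7 members in hippocampus and 0 by side and region. Over all 7503 probe sets the fit of only the arrays compared called 1291 in hippocampus and 64 by side and region. Array weights called 4 members for cortex sides at 24 h and 8 in hippocampus, where 38 and 1881 of all probe sets were called. The signal percentile covariate called 0 in hippocampus and 0 by side and region (median -0.025 against 0.038). The Gapdh ratio, added after seeing the data, called 11 members over time ipsilaterally, 20 contralaterally and 14 by region contralaterally. Over all 7503 probe sets it called 745, 623 and 1740. With 1 probe set per gene (43) or without suffixes (33), 0 passed at 24 h and 0 by side and region; without suffixes 2 passed in hippocampus, 18 over time contralaterally (median -0.14), and 15 and 8 by region. The lower floor left each count of calls within 1.5 times. The cause was not tested except where fewer probe sets or arrays were used.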
